A study of Mus musculus with 18 samples.

Results

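The Hox cluster genes are the homeobox genes of the Hoxa, Hoxb, Hoxc and Hoxd clusters, taken here as every gene of the count table whose symbol is Hox, a cluster letter and a number. This gave 39 of the 24116 genes in the table, of which Hoxa held 11, Hoxb 10, Hoxc 9 and Hoxd 9. Antisense and microRNA genes of the same clusters are not among the 39 and are described as neighbours.

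Hox proteins are transcription factors that give cells their position along the head-to-tail axis. Genes of a cluster lie side by side in the order in which they are used, with low numbers acting early and towards the head and high numbers late and towards the tail. Genes with the same number in different clusters are paralogues, copies of an ancestral gene. In embryonic stem (ES) cells the clusters are held nearly silent by Polycomb complexes, and CTCF sites mark boundaries within them.

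RNA was sequenced from mouse ES cells of strain 129S6/SvEvTac kept in serum with LIF, a cytokine that holds ES cells undifferentiated. The groups were Snf2h ko cells with a wild-type Snf2h add-back (n = 3), Snf2h ko cells with a mutant Snf2h add-back (n = 2, replicates 1 and 3), Snf2h ko cells (n = 5) and wild-type cells (n = 8). Both add-back groups carry the ko as well, and the mutant is an ATPase mutant per the growth protocol. Snf2h, encoded by Smarca5, is the motor subunit of the ISWI chromatin remodelling complexes. The labels do not say how the add-back is driven or how many clones each group stands for.

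Growth differed with group. Cells grew on gelatin, except that the Snf2h ko and ATPase mutant lines spent at least their initial passages after thawing on feeder cells, which are embryonic fibroblasts. Embryonic fibroblasts are known to express Hox genes that reflect their place of origin. Feeder contact and the lack of wild-type Snf2h fall on the same 2 groups, and their parts in a difference cannot be told apart.

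Library totals ran from 15.3 to 37.0 M counts and fell into separate ranges. A low set under 20 M held all add-back libraries, ko replicates 3, 4 and 5 and wild-type replicates 6, 7 and 8. A middle set of 22.9 to 25.3 M held ko replicates 1 and 2 and wild-type replicates 1 and 2, and a high set from 30 M held wild-type replicates 3, 4 and 5. The labels name no batch, so these sets rest on totals alone. Between the ko libraries of the middle and low sets the chi-square per gene was 38.56 to 44.98, against 1.66 to 2.22 within these sets. Between wild-type libraries of different sets it was 25.03 to 55.37, against 1.37 to 1.90 within the middle and low sets, but the wild-type libraries of the high set also differed among themselves, at 12.96 to 32.95. The mutant add-back pair, both in the low set, differed at 11.19. Smarca5 averaged 86.0 CPM (counts scaled to a common library size) in wild-type add-back, 58.5 in mutant add-back, 9.36 in ko and 185 in wild type (log2 change of ko over wild type -4.30 ± 0.13, SE, adjusted p = 3.0e-14, edgeR). All 10 ES cell markers on a fixed list averaged 1 CPM or more in every group. At an adjusted p under 0.05 (edgeR), 3 were higher and 3 lower in ko than in wild type. Among all tested genes 26.8% were higher and 28.2% lower. In the middle set 2 markers were higher and 6 lower (29.9% and 31.9% of all tested genes). In the low set 5 were higher and 2 lower (29.3% and 30.8%).

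The clusters lie on separate chromosomes of the mouse genome (build GRCm38, RefSeq gene spans). Hoxa lies on chromosome 6 and is read from the minus strand. Hoxb runs from 96194316 to 96368254 on chromosome 11, Hoxc from 102921131 to 103036856 on chromosome 15 and Hoxd from 74668225 to 74765142 on chromosome 2, all read from the plus strand. Promoter sequences from RefSeq (GRCm38.p6) matched 22 of the 39 genes, with 24 start sites.

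The 250 bases before the start site are shown for 5 Hox genes that stand for the behaviours described here. Hoxd13, Hoxd9 and Hoxd8 are from Hoxd, where all 4 tested genes were higher in ko. All 3 tested Hoxc genes were also higher, beside 26.8% of all tested genes. The call for Hoxc4 was lost in 20 of 28 other settings. Hoxd8, Hoxd9, Hoxd10 and, in Hoxc, Hoxc10 were tested only because ko or mutant add-back libraries carried them past the filter on low counts. Hoxa11 was higher in ko in the middle depth set and not called in the low set, and Hoxb4 was not called over all libraries. Capitals mark matches on either strand to the TATA box, spelled TATAAA, to the CCAAT box, to the core of the motif bound by CTCF, and to a site of Hox proteins with their partner Pbx, spelled TGATNNAT. Each is written 5′ to 3′ on the strand of its gene.
Hoxd13, plus strand of chr2:74667975-74668224: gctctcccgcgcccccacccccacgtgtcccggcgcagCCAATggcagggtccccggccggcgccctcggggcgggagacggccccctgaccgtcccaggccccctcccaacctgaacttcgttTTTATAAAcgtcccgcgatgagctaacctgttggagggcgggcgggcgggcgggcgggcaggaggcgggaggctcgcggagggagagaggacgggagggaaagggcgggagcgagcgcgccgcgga
Hoxd9, plus strand of chr2:74697513-74697762: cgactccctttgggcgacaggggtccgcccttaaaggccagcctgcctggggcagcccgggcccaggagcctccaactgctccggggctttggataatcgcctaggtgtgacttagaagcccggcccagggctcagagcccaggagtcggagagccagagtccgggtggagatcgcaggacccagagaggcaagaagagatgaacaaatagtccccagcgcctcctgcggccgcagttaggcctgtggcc
Hoxd8, plus strand of chr2:74704365-74704614: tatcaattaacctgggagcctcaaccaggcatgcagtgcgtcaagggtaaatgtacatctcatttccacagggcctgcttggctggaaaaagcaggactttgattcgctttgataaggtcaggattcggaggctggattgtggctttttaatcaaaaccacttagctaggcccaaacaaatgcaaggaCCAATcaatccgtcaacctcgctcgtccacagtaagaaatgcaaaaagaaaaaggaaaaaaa
Hoxa11, minus strand of chr6:52245811-52246060: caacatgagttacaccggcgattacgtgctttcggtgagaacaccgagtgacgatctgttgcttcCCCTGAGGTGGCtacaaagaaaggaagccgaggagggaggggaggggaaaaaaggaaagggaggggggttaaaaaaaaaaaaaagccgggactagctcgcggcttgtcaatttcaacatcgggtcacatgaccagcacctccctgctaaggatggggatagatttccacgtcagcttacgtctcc
Hoxb4, plus strand of chr11:96318017-96318266: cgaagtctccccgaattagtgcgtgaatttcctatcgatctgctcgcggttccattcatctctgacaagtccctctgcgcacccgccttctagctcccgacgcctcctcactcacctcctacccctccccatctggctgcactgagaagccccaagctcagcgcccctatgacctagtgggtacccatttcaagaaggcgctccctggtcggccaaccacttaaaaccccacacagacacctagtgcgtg

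The Hoxd13 stretch held a CCAAT box and 2 TATAAA matches, which lie on opposite strands and overlap in a single run of capitals. The Hoxd8 stretch held a CCAAT box, the Hoxa11 stretch a match to the CTCF core, and the Hoxd9 and Hoxb4 stretches no match to these motifs. Across the 24 Hox start sites, TATAAA was found in 16.7%, against 12.4% of all 32851 promoters of the same length. CCAAT was found in 58.3% of Hox start sites against 33.8% of all promoters, the CTCF core in 12.5% against 7.17%, and TGATNNAT in 16.7% against 7.68%. The median number of CG dinucleotides was 12.5 in the Hox stretches and 6.0 in all promoters. A match describes letters of the sequence and is not a site shown to be bound.

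Most Hox genes were barely expressed in any group. A mean of 1 CPM or more was reached by 3 of the 39 in wild-type add-back (Hoxc13 and Hoxd13 among them), by 7 in mutant add-back (Hoxa10, Hoxa11, Hoxb9, Hoxc4, Hoxc13 and Hoxd13 among them), by 6 in ko (Hoxa11, Hoxb9, Hoxc4, Hoxc13 and Hoxd13 among them) and by 3 in wild type (Hoxb9 and Hoxc13 among them). Just below the mark were Hoxa10 in ko at 0.998 CPM and Hoxd13 in wild type at 0.986 CPM. The other 32 genes stayed under it in every group. With the demand that every library of a group reach 1 CPM, the numbers were 2 in wild-type add-back, 7 in mutant add-back, 4 in ko and 1 in wild type.

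**Figure D1:**
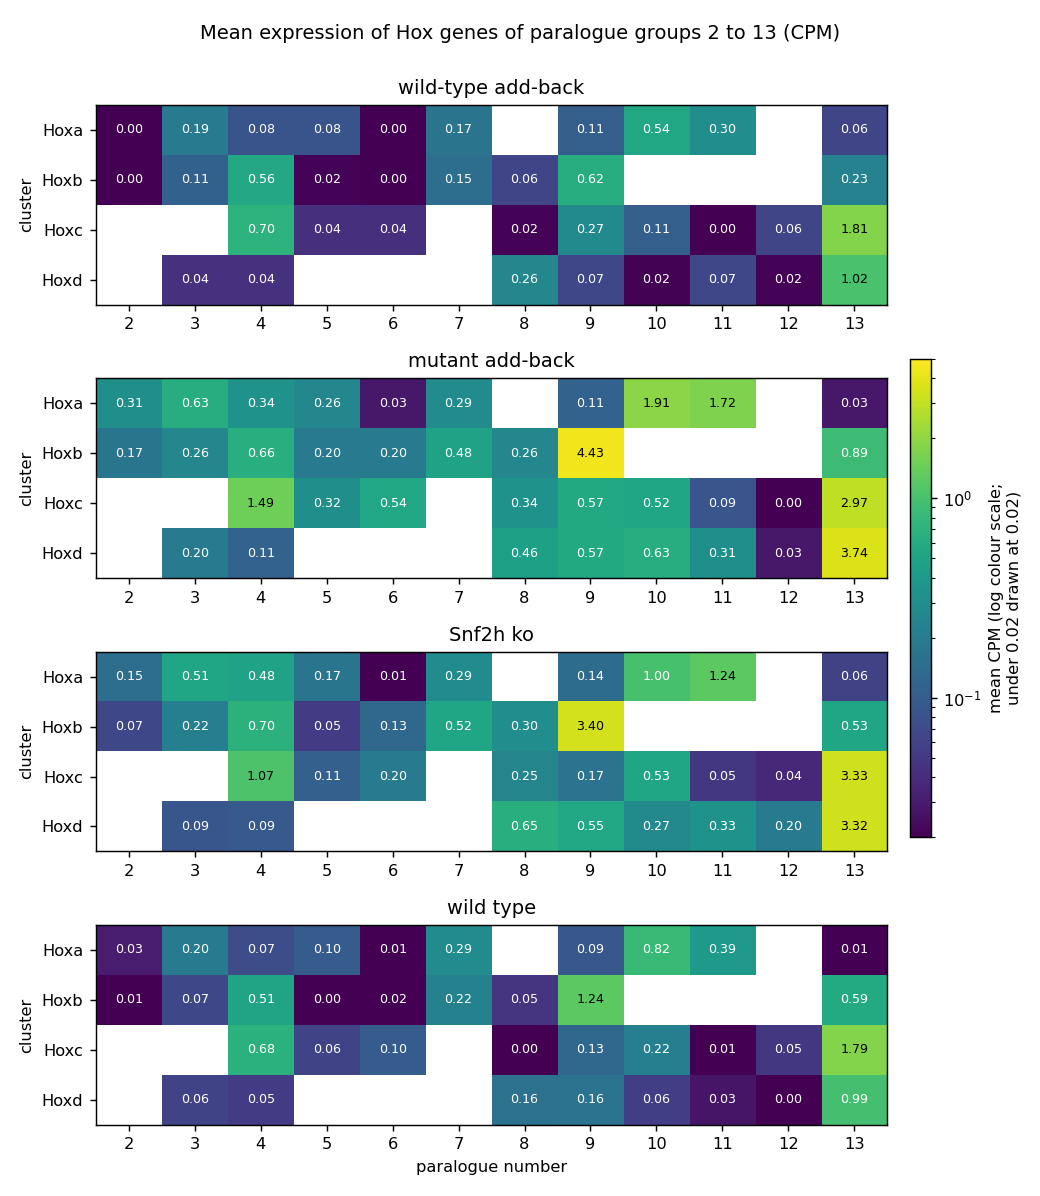
Mean expression (CPM) of the Hox genes of paralogue groups 2 to 13 by cluster and paralogue number in wild-type add-back (n = 3), mutant add-back (n = 2), Snf2h ko (n = 5) and wild type (n = 8), with the value as number and colour and white where a cluster has no such gene. The brightest cells lie at Hoxb9, Hoxc13 and Hoxd13, with Hoxb9 at 0.622 CPM in wild-type add-back, 4.43 in mutant add-back, 3.40 in ko and 1.24 in wild type.

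Summed over the 39 genes, Hox expression was 10.6, 11.5 and 9.30 CPM in the wild-type add-back libraries, 36.8 and 36.0 CPM in the mutant add-back libraries, and 34.4, 33.9, 31.8, 31.1 and 30.2 CPM in the ko libraries. In wild type the sum was 11.1 CPM at its lowest, 13 at the median and 14.1 at its highest. Every ko and mutant add-back library lay above every wild-type and wild-type add-back library. In the middle set ko had 34.4 and 33.9 CPM against 11.4 and 11.1 CPM in wild type, and in the low set 31.8, 31.1 and 30.2 CPM against 12.1, 14.1 and 13.9 CPM in wild type. These sums are 138 to 878 counts per library, and in bulk RNA fewer cells of a type and less RNA per cell cannot be told apart.

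Fibroblast markers moved with the same groups. The summed level of 25 feeder markers on a fixed list was 111 to 115 CPM in wild-type add-back, 331 to 406 CPM in mutant add-back, 295 to 344 CPM in ko and 101 to 167 CPM in wild type. Of the 21 that could be tested, 16 were higher and 3 lower in ko than in wild type, and 16 were lower and 0 higher in wild-type add-back than in ko. Among all tested genes 26.8% were higher and 28.2% lower in ko than in wild type. In wild-type add-back against ko 22.4% of all tested genes were lower and 45.0% changed. The 10 markers that best define fibroblasts summed to 21.4 to 22.3 CPM in wild-type add-back, 46.6 to 48.2 CPM in mutant add-back, 43.4 to 53.2 CPM in ko and 19.0 to 40.1 CPM in wild type. Among these, Postn and Dpt were at 0 in all wild-type add-back libraries, Lum and Dpt in all mutant add-back libraries and Lum in all ko libraries, and none was at 0 throughout wild type. Of the 6 of these 10 that could be tested, 4 were higher and 1 lower in ko, at a median log2 change of 2.40. The collagen gene Col1a1 averaged 1.94 CPM in wild-type add-back, 9.32 in mutant add-back, 15.8 in ko and 4.60 in wild type. The 4 higher in ko were Col1a1 (log2 1.76 ± 0.21), Postn (4.96 ± 0.58), Prrx1 (4.22 ± 0.41) and Col3a1 (3.04 ± 0.40). In ko Postn averaged 1.39 CPM, Prrx1 1.83 and Col3a1 1.10, against 0.0448, 0.106 and 0.124 CPM in wild type. The 1 gene of the 6 tested that was lower in ko was Pdgfrb (log2 -0.89 ± 0.22, adjusted p = 0.0024, edgeR). It averaged 2.84 CPM in wild-type add-back, 2.69 in mutant add-back, 3.15 in ko and 5.82 in wild type. Summed over libraries, Dcn had 1 count in wild-type add-back, 5 in mutant add-back, 4 in ko and 4 in wild type. Lum had 1, 0, 0 and 1 counts and Dpt 0, 0, 1 and 2 in the same groups. Within wild type the feeder sum was 147 to 167 CPM in the high set and 101 to 102 CPM in the low set, while the Hox sums of these sets were 13.7, 13.8 and 12.2 CPM and 12.1, 14.1 and 13.9 CPM. The part of feeder RNA in the Hox differences between groups was not tested.

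By cluster, Hoxa gave the most RNA in every group. Its sum averaged 3.88 ± 0.442 CPM in wild-type add-back, 15.6 ± 0.907 in mutant add-back, 14.7 ± 0.856 in ko and 5.23 ± 1.42 in wild type (SD over libraries). The Hoxb sum averaged 1.77 ± 0.0632 CPM in wild-type add-back, 7.55 ± 0.778 in mutant add-back, 5.91 ± 0.918 in ko and 2.74 ± 0.605 in wild type. Hoxc and Hoxd held less RNA than Hoxa in every group. The Hoxc sum averaged 3.06 ± 0.649 CPM in wild-type add-back, 6.83 ± 0.813 in mutant add-back, 5.73 ± 1.36 in ko and 3.04 ± 0.750 in wild type, and the Hoxd sum 1.75 ± 0.281, 6.40 ± 0.119, 5.90 ± 0.628 and 1.77 ± 0.377 CPM in the same groups. For each cluster the lowest ko library lay above the highest wild-type library, with the closest pair in Hoxc at 4.55 CPM in ko and 4.16 CPM in wild type.

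**Figure D2:**
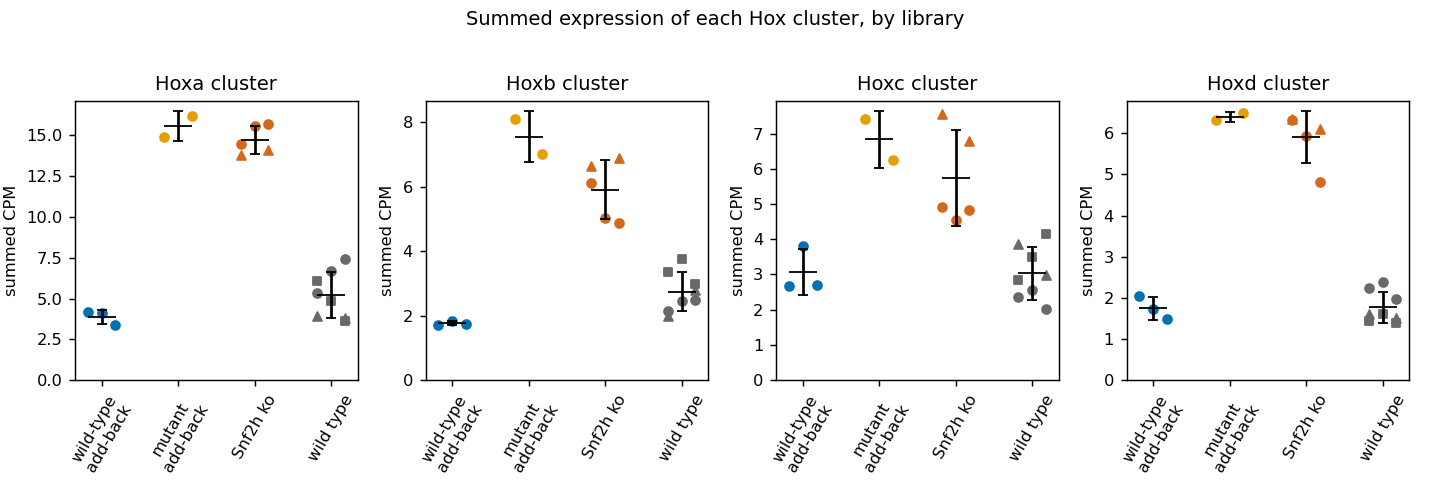
Summed expression (CPM) of each Hox cluster in every library of wild-type add-back, mutant add-back, Snf2h ko and wild type, with a marker for the depth set of the library and bars for mean ± SD. In each panel the ko and mutant add-back libraries lie above the wild-type and wild-type add-back libraries, with Hoxd at 4.82 CPM in the lowest ko library and 2.38 CPM in the highest wild-type library.

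Among paralogue groups 2 to 13, group 13 had the highest sum in every group of libraries. Paralogue group 13 summed to 3.12 CPM in wild-type add-back, 7.63 in mutant add-back, 7.24 in ko and 3.38 in wild type, most of it Hoxc13 and Hoxd13. Groups 2, 5, 6, 7 and 12 stayed under 1 CPM everywhere. Group 9 summed to 1.07 CPM in wild-type add-back, 5.69 in mutant add-back, 4.26 in ko and 1.62 in wild type, most of it Hoxb9. Group 12 was the only one with a lower mean in mutant add-back (0.0284 CPM) than in wild type (0.0487 CPM), at a level of single reads.

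Levels of different genes were compared per kilobase of exon. On that scale Hoxc13 had 0.743 CPM per kb in wild-type add-back, 1.22 in mutant add-back, 1.37 in ko and 0.737 in wild type. Hoxd13 had 0.411 CPM per kb in wild-type add-back, 1.51 in mutant add-back, 1.34 in ko and 0.397 in wild type, and Hoxb9 had 0.231, 1.64, 1.26 and 0.458 CPM per kb in the same groups. In ko the order of these 3 cannot be read from values so close.

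For tests, genes with low counts were removed by a rule that asked for about 0.552 CPM in at least 2 libraries, which left 14901 genes and 15 of the 39 Hox genes. Of these 15, 8 would have passed on the wild-type libraries alone (Hoxa10, Hoxb4, Hoxb9, Hoxb13, Hoxc4, Hoxc13 and Hoxd13 among them). The other 7 (Hoxa3, Hoxa11, Hoxb7, Hoxc10, Hoxd8, Hoxd9 and Hoxd10) needed ko or mutant add-back libraries to pass, so being high there was a condition of their being tested, and a count that includes them is a description only. A call is an adjusted p under 0.05 in edgeR's quasi-likelihood test, adjusted over all genes tested.

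In ko against wild type, 12 of the 15 tested Hox genes were higher and 0 lower, where 26.8% of all tested genes were higher, 28.2% lower and 55.0% changed in either direction. Of the 8 that wild type alone let through, 5 were higher, at a median log2 change of 0.74. The median over the 15 was 1.44, beside -0.01 over all tested genes. By cluster, 3 of 4 Hoxa, 2 of 4 Hoxb, 3 of 3 Hoxc and 4 of 4 Hoxd genes were higher. Hoxa3, Hoxa11, Hoxb7, Hoxc10, Hoxd8, Hoxd9 and Hoxd10 among these needed ko or mutant add-back libraries to be tested. In Hoxd only Hoxd13 passed on wild type alone, so the counts by cluster are a description. For 6 genes (Hoxb9, Hoxd8, Hoxd9, Hoxd10 and Hoxd13 among them) every ko library lay above every wild-type library, which held for 14.1% of all tested genes. Of these, Hoxd8, Hoxd9 and Hoxd10 were again tested only through ko or mutant add-back libraries.

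In wild-type add-back against ko, 10 of the 15 were lower and 0 higher, where 22.4% of all tested genes were lower and 45.0% changed. Of the 8, 4 were lower. For 12 of the 15 every wild-type add-back library lay below every ko library, which held for 26.8% of all tested genes. In wild-type add-back against mutant add-back, 8 of 15 were lower and 0 higher, where 18.4% of all tested genes were lower and 37.0% changed, and for 13 the libraries lay apart, with wild-type add-back lower, as for 36.3% of all tested genes. Of the 8 genes that wild type alone let through, 4 were lower there. In mutant add-back against wild type, 11 of 15 were higher and 0 lower, where 22.1% of all tested genes were higher and 45.5% changed, and for 9 the libraries lay apart, with mutant add-back higher, as for 23.2% of all tested genes. Of the 8 genes that wild type alone let through, 5 were higher. The counts over 15 include the 7 genes that needed ko or mutant add-back libraries to be tested. These comparisons share libraries and are not independent of each other.

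The remaining comparisons gave no Hox calls. In mutant add-back against ko, edgeR called 0 of 15, where 0.322% of all tested genes were called. Hoxd10 alone had an unadjusted p under 0.05, DESeq2 also called 0, and the log2 differences ran from -0.56 to 1.18 with a median of 0.17. For 4 genes (Hoxa10, Hoxb9, Hoxb13 and Hoxd10) both mutant add-back libraries lay above all ko libraries, as for 13.6% of all tested genes. In wild-type add-back against wild type, edgeR called 0 of 15, where 1.60% of all tested genes were called. There Hoxb9 and Hoxb13 had an unadjusted p under 0.05, DESeq2 called 0, and the log2 differences ran from -1.41 to 0.69 with a median of -0.45. For Hoxb9 alone all wild-type add-back libraries lay below all wild-type libraries, as for 4.52% of all tested genes. The standard errors of these differences were 0.22 to 1.19.

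**Figure D3:**
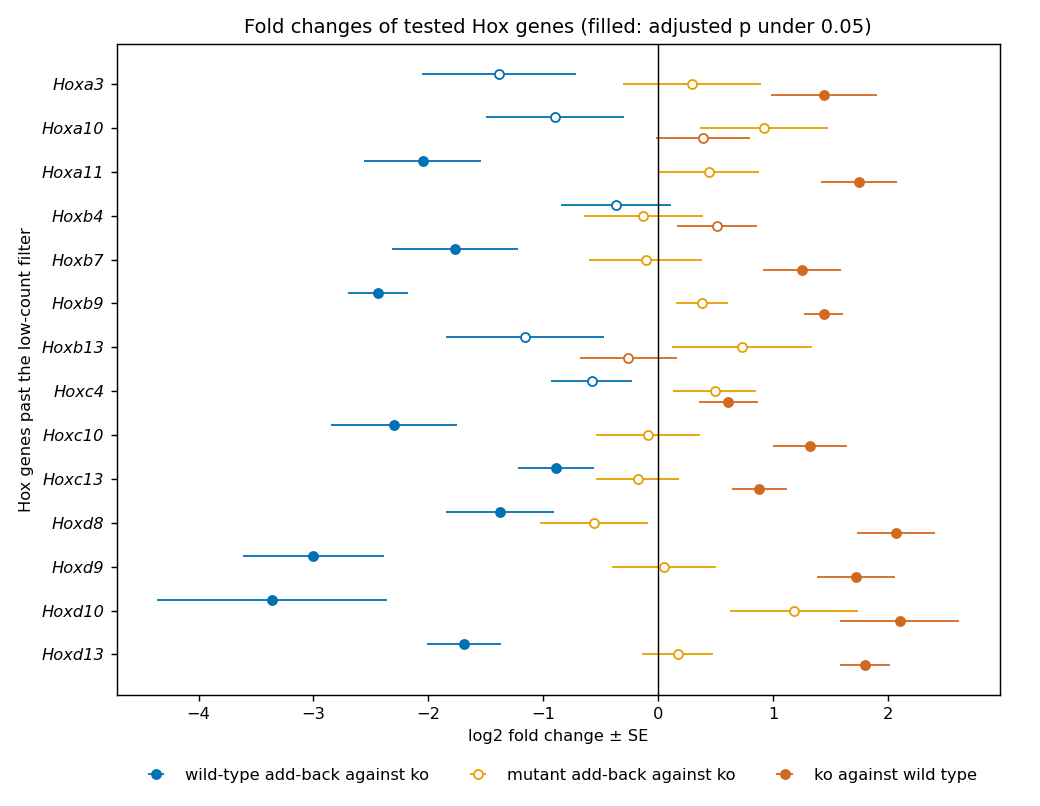
Log2 fold change ± SE of tested Hox genes in wild-type add-back against ko, mutant add-back against ko and ko against wild type, with filled points at an adjusted p under 0.05 (edgeR). Wild-type add-back against ko runs from -3.36 to -0.37, mutant add-back against ko from -0.56 to 1.18 with no filled point, and ko against wild type from -0.26 to 2.10.

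Among the head-end genes, Hoxa3, needed for the thymus and parathyroid, averaged 0.191 CPM in wild-type add-back, 0.627 in mutant add-back, 0.514 in ko and 0.199 in wild type. Its log2 change in ko was 1.44 ± 0.46 (adjusted p = 0.012, edgeR), and its ko and wild-type libraries overlapped. The call was lost within either depth set, at 0.54 ± 0.59 in the middle (adjusted p = 0.44) and 1.32 ± 0.60 in the low set (adjusted p = 0.062). Of its exon bases in GENCODE vM21, 27.1% are shared with other annotated genes, some of them antisense. The sources used here do not say whether counting used strand, so such reads cannot be assigned with certainty. GENCODE gives Hoxa3 6014 exon bases and the deposited width is 2543, so the shared part of the counted bases is not known.

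Hoxc4, which acts in the neck region, had 0.830, 0.676 and 0.607 CPM in wild-type add-back, 1.49 and 1.48 CPM in mutant add-back, 1.02, 0.812, 1.64, 0.635 and 1.22 CPM in ko, and 0.305 (lowest), 0.657 (median) and 1.10 CPM (highest) in wild type. Ko and wild type overlapped, and both mutant add-back libraries stood above wild type. Its log2 change in ko was 0.61 ± 0.26 (adjusted p = 0.049, edgeR), a call lost in 20 of 28 other settings. It was 0.17 ± 0.38 in the middle set (adjusted p = 0.72) and 1.20 ± 0.37 in the low set (adjusted p = 0.0084). Its paralogue Hoxb4, known from blood stem cells, averaged 0.555 CPM in wild-type add-back, 0.658 in mutant add-back, 0.696 in ko and 0.508 in wild type and was called in no comparison over all libraries. The depth sets disagreed for Hoxb4. Its log2 change in ko was 1.61 ± 0.46 in the middle set (adjusted p = 0.0044, edgeR) and -0.43 ± 0.46 in the low set (adjusted p = 0.43).

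Of the trunk genes, Hoxb9, which patterns the thoracic skeleton, had 0.830, 0.430 and 0.607 CPM in wild-type add-back, 4.88 and 3.98 CPM in mutant add-back, 3.54, 3.36, 3.50, 3.65 and 2.96 CPM in ko, and 0.915 (lowest), 1.18 (median) and 1.63 CPM (highest) in wild type. The groups formed separate ranges, with wild-type add-back lowest and mutant add-back highest. The log2 change of ko over wild type was 1.44 ± 0.17 (adjusted p = 9.0e-07, edgeR), with 1.35 ± 0.24 in the middle and 1.75 ± 0.23 in the low set. Wild-type add-back was lower than ko by -2.44 ± 0.26 (adjusted p = 7.5e-07). Against wild type its log2 difference was -1.01 ± 0.26 with an adjusted p of 0.054, the lowest of the Hox genes in that comparison.

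Hoxb7, close to Hoxb9 in its cluster, averaged 0.146 CPM in wild-type add-back, 0.485 in mutant add-back, 0.516 in ko and 0.224 in wild type, with overlapping libraries and a log2 change in ko of 1.25 ± 0.34 (adjusted p = 0.0049, edgeR). That change was 1.60 ± 0.55 in the middle set (adjusted p = 0.015) and 0.66 ± 0.53 in the low set, where the call was lost (adjusted p = 0.29). Hoxd8 averaged 0.255 CPM in wild-type add-back, 0.457 in mutant add-back, 0.653 in ko and 0.162 in wild type, and its lowest ko library at 0.339 CPM lay above its highest wild-type library at 0.244 CPM. Its log2 change in ko was 2.07 ± 0.34 (adjusted p = 4.6e-05), with 2.75 ± 0.44 in the middle and 1.06 ± 0.47 (adjusted p = 0.065) in the low set. Hoxd9 averaged 0.0650 CPM in wild-type add-back, from 3 counts in all, 0.572 in mutant add-back, 0.546 in ko and 0.164 in wild type. Its log2 change in ko was 1.72 ± 0.34 (adjusted p = 0.00028), with 2.91 ± 0.59 in the middle and 1.25 ± 0.50 in the low set.

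**Figure D4:**
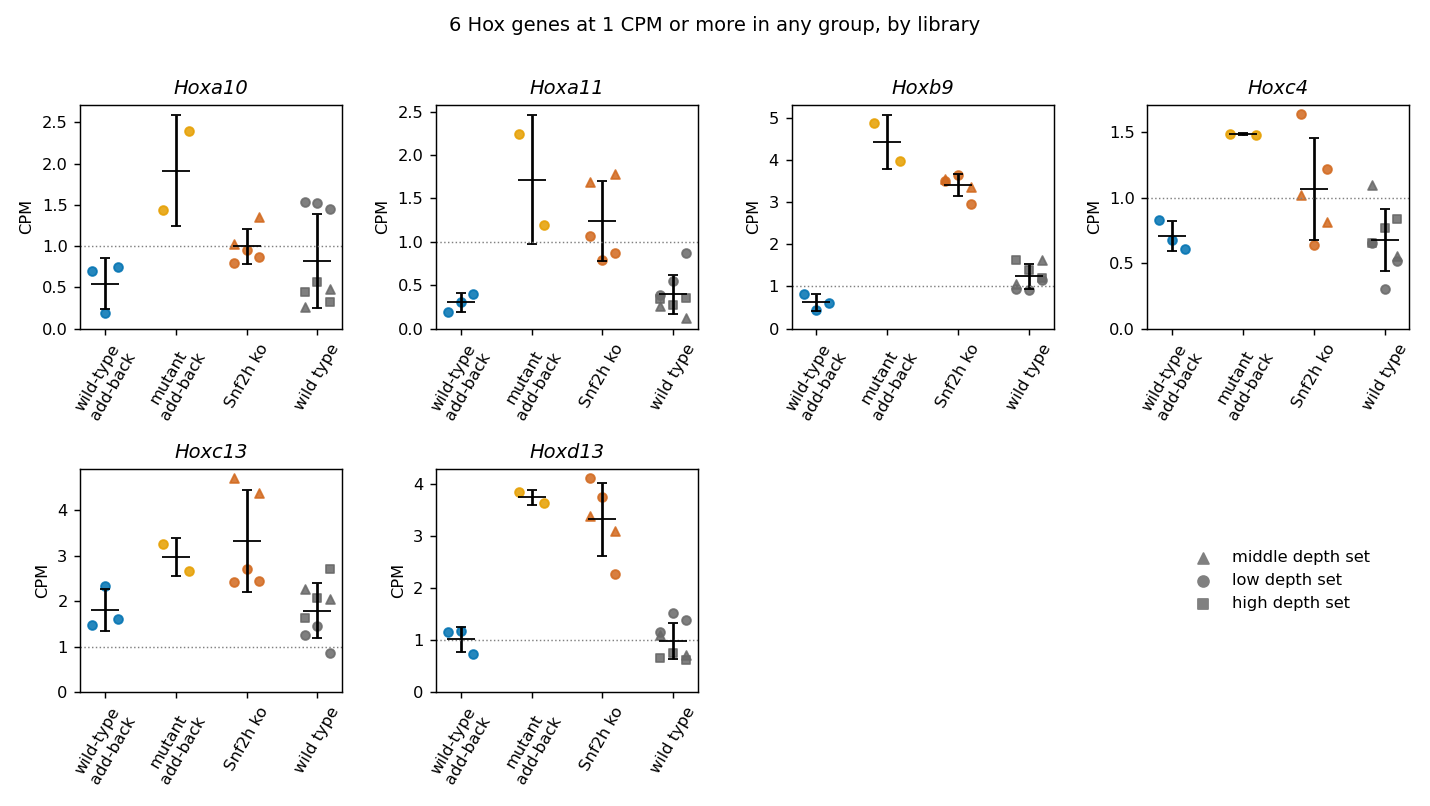
Expression (CPM) in every library of 6 Hox genes that reached a mean of 1 CPM (dotted line) in any group, in wild-type add-back, mutant add-back, Snf2h ko and wild type, with bars for mean ± SD and markers for the depth set. Hoxb9 and Hoxd13 show ko and mutant add-back apart from the other groups. For Hoxa10 the low-set wild-type libraries, at 1.45 to 1.53 CPM, lie above all ko libraries, and the other wild-type libraries lie at or under 0.559 CPM.

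Of the lumbar and limb genes, Hoxa10, known for its role in the uterus, had 0.702, 0.184 and 0.741 CPM in wild-type add-back, 1.44 and 2.39 CPM in mutant add-back, 1.02, 1.35, 0.790, 0.953 and 0.871 CPM in ko, and 0.263 (lowest), 0.518 (median) and 1.53 CPM (highest) in wild type. Wild type overlapped every other group. Over all libraries its log2 change in ko was 0.39 ± 0.41 (adjusted p = 0.44, edgeR), but it was 1.65 ± 0.42 (adjusted p = 0.0019) in the middle set and -0.78 ± 0.32 (adjusted p = 0.04) in the low set. No other tested Hox gene was lower in ko at the threshold in either set.

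Hoxa11, which shapes the forearm and kidney, had 0.192, 0.307 and 0.404 CPM in wild-type add-back, 2.24 and 1.19 CPM in mutant add-back, 1.69, 1.78, 1.07, 0.794 and 0.871 CPM in ko, and 0.119 (lowest), 0.350 (median) and 0.867 CPM (highest) in wild type. The highest wild-type library reached into the ko range. The log2 change in ko was 1.75 ± 0.33 over all libraries (adjusted p = 0.00022, edgeR), 3.17 ± 0.43 in the middle set (adjusted p = 2.2e-06) and 0.60 ± 0.35 in the low set (adjusted p = 0.14). Its exons share 35.0% of their bases with the antisense Hoxa11os, so reads of the 2 genes may not be separable.

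Hoxc10, used in lumbar motor neurons, averaged 0.107 CPM in wild-type add-back, 0.515 in mutant add-back, 0.526 in ko and 0.219 in wild type, with a log2 change in ko of 1.32 ± 0.32 (adjusted p = 0.0019, edgeR). That change was 2.29 ± 0.42 in the middle set and 0.33 ± 0.44 (adjusted p = 0.59) in the low set. Its paralogue Hoxd10 averaged 0.0205 CPM in wild-type add-back, 0.629 in mutant add-back, 0.270 in ko and 0.0554 in wild type, with a log2 change in ko of 2.10 ± 0.52 (adjusted p = 0.0023), 3.58 ± 1.05 in the middle (adjusted p = 0.0056) and 1.96 ± 0.87 in the low set (adjusted p = 0.057). Hoxd10 rested on 1 count in all wild-type add-back libraries and 12 in all wild-type libraries, so the size of its fold changes is poorly known.

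Of the tail-end genes, Hoxd13, which builds the digits, had 1.15, 1.17 and 0.741 CPM in wild-type add-back, 3.85 and 3.64 CPM in mutant add-back, 3.39, 3.09, 4.12, 3.76 and 2.27 CPM in ko, and 0.613 (lowest), 0.921 (median) and 1.52 CPM (highest) in wild type. Ko and mutant add-back lay above wild type and wild-type add-back without overlap. The log2 change of ko over wild type was 1.80 ± 0.22 (adjusted p = 1.9e-06, edgeR), with 1.84 ± 0.28 in the middle and 1.33 ± 0.23 in the low set. Wild-type add-back was lower than ko by -1.69 ± 0.32 (adjusted p = 0.00028).

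Hoxc13, needed for hair and nails, had 1.47, 2.34 and 1.62 CPM in wild-type add-back, 3.27 and 2.67 CPM in mutant add-back, 4.72, 4.37, 2.43, 2.70 and 2.44 CPM in ko, and 0.867 (lowest), 1.85 (median) and 2.71 CPM (highest) in wild type. Ko and wild type overlapped, and both were higher in the middle set than in the low set. The log2 change in ko was 0.88 ± 0.24 over all libraries (adjusted p = 0.0044, edgeR), 1.06 ± 0.23 in the middle and 1.08 ± 0.24 in the low set. Hoxb13, known from the tail and prostate, averaged 0.233 CPM in wild-type add-back, 0.887 in mutant add-back, 0.529 in ko and 0.590 in wild type. Its log2 difference of ko from wild type was -0.26 ± 0.42 over all libraries (adjusted p = 0.63), beside 0.79 ± 0.52 in the middle and 0.75 ± 0.49 in the low set. Its wild-type libraries of the high set, at 1.00, 1.54 and 0.645 CPM, were the highest of their group.

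The ko effect was estimated within the depth sets that hold both groups. The p-values by set measure the spread between libraries within groups and sets, which may be technical. The 15 tested genes include the 7 that needed ko or mutant add-back libraries to pass the filter, so the counts are a description. In the middle set 12 of 15 Hox genes were higher in ko and 0 lower, where 29.9% of all tested genes were higher and 31.9% lower, and the median log2 change was 1.65. In the low set 6 were higher (Hoxb9, Hoxc4, Hoxc13, Hoxd9 and Hoxd13 among them) and 1 lower, where 29.3% of all tested genes were higher and 30.8% lower, and the median was 1.08. The difference between the sets was itself called for 4 of 15, Hoxa10, Hoxa11, Hoxb4 and Hoxc10, each with the larger effect in the middle set, where 13.2% of all tested genes had a difference in that direction. The add-back libraries all belong to the low set, and against its ko libraries wild-type add-back was lower for 8 of 15 (28.8% of all tested genes) and mutant add-back higher for 1, Hoxa10 (6.83% of all tested genes).

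**Figure D5:**
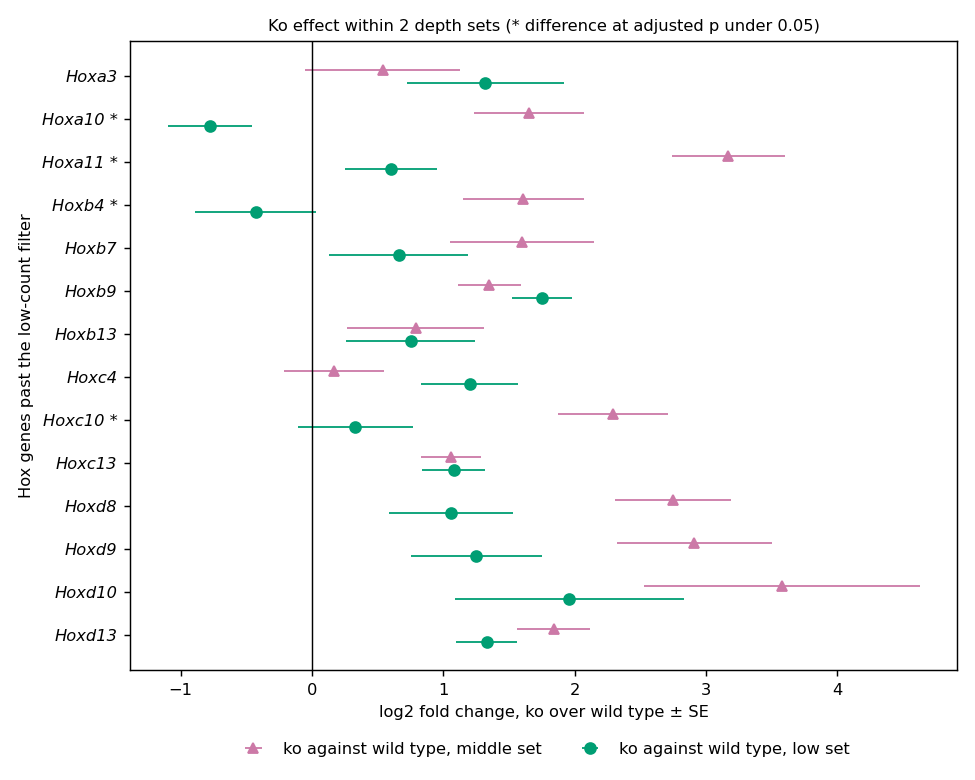
Log2 fold change ± SE of tested Hox genes in ko over wild type within the middle (2 against 2 libraries) and the low depth set (3 against 3 libraries), with an asterisk where the difference between sets had an adjusted p under 0.05 (edgeR). Hoxb9 lies at 1.35 and 1.75 and Hoxc13 at 1.06 and 1.08, while Hoxa10 lies at 1.65 and -0.78 and Hoxa11 at 3.17 and 0.60.

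Wild-type libraries themselves differed between the sets for 3 of the 15, where 43.5% of all tested genes differed. Wild-type Hoxa10 averaged 1.5 CPM in the low and 0.370 CPM in the middle set (log2 difference 1.99 ± 0.40, adjusted p = 0.00046, edgeR), and wild-type Hoxa11 averaged 0.600 CPM in the low and 0.191 CPM in the middle set (1.64 ± 0.51, adjusted p = 0.013). Hoxc13 was lower in the low set (-0.86 ± 0.26, adjusted p = 0.012).

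The 24 untested Hox genes had group means of at most 0.274 CPM in wild-type add-back, 0.572 in mutant add-back, 0.484 in ko and 0.289 in wild type, and for 21 of the 24 the mean was higher in ko than in wild type. Together they had 73 counts in wild-type add-back, 186 in mutant add-back, 426 in ko and 312 in wild type. They are Hoxa2, Hoxa4, Hoxa5, Hoxa6, Hoxa7, Hoxa9, Hoxa13, Hoxb1, Hoxb2, Hoxb3, Hoxb5, Hoxb6, Hoxb8, Hoxc5, Hoxc6, Hoxc8, Hoxc9, Hoxc11, Hoxc12, Hoxd1, Hoxd3, Hoxd4, Hoxd11 and Hoxd12. No count was found for Hoxa2, Hoxa6, Hoxb2, Hoxb6 and Hoxc11 in wild-type add-back, for Hoxb1 and Hoxc12 in mutant add-back, for Hoxb1 in ko and for Hoxb5, Hoxc8 and Hoxd12 in wild type.

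Hoxc8, a gene of the lower thorax, had 1, 0 and 0 counts in wild-type add-back, 7 and 5 in mutant add-back, 6, 3, 3, 9 and 4 in ko and 0 in all wild-type libraries. Every ko and mutant add-back library thus held reads of it. Against a floor of 3 counts over the wild-type group, ko was at least 15.9-fold higher. Hoxd12, a limb gene beside Hoxd13, had 0, 1, 6, 4 and 7 counts in ko, most of them in the low set, and 0 in wild type. By the same floor ko was at least 11.4-fold higher over all libraries. Both bounds pool the depth sets and do not stand for either set alone. They allow for counting error in wild type and take the ko counts as observed. Both genes were picked out for their 0 counts in wild type. Hoxb5 had 5 counts in ko and 0 in wild type.

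Hoxd11, which shapes the forearm with Hoxa11, had 0, 1 and 2 counts in wild-type add-back, 4 and 7 in mutant add-back, 4, 7, 5, 8 and 9 in ko, and at most 2 in any wild-type library. Hoxa4 had 4 counts in all wild-type add-back libraries, 12 in mutant add-back, 53 in ko and 16 in wild type. Hoxb1, a hindbrain gene, had 1 count in wild-type add-back, 0 in mutant add-back, 0 in ko and 7 in wild type. Hoxa7 averaged 0.168 CPM in wild-type add-back, 0.286 in mutant add-back, 0.288 in ko and 0.289 in wild type.

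Some scarce reads cannot be given to a single gene. Of the exon bases of Hoxb3, 52.9% are shared with the antisense Hoxb3os, and 62.8% of those of Hoxd3 and 52.3% of those of Hoxd4 are shared with other annotated genes, 388 bases of them between Hoxd3 and Hoxd4 (GENCODE vM21, GRCm38). Hoxc10 shares 8.70% with Hoxc5 on the same strand. Hoxa10, Hoxb4, Hoxb7, Hoxb9, Hoxb13, Hoxc4, Hoxc13, Hoxd8, Hoxd9 and Hoxd13 share none. These shares are of exon bases in that annotation. The widths deposited with the counts differ for some genes, as for Hoxd4 at 2559 bases against 2948.

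Other genes in and beside the clusters were examined as a list, of which 20 were tested, with 8 higher and 3 lower in ko than in wild type at a median log2 change of 0.14. Here and in the lists that follow, counts stand beside 26.8% higher and 28.2% lower among all tested genes, and the 11 of 20 changed here match the 55.0% changed among all. Hotairm1, an antisense RNA of the Hoxa cluster, averaged 0.406 CPM in wild-type add-back, 1.29 in mutant add-back, 0.835 in ko and 0.218 in wild type (log2 1.96 ± 0.27 in ko, adjusted p = 6.0e-06, edgeR). Its ko and wild-type libraries did not overlap. The entry named Mir196a-1 averaged 0.278 CPM in wild-type add-back, 0.772 in mutant add-back, 1.11 in ko and 0.228 in wild type (log2 2.23, adjusted p = 3.2e-06). The libraries hold polyadenylated RNA, so this entry counts reads over its locus and does not measure the mature microRNA. Ttll6, a tubulin-modifying enzyme gene on the Hoxb side, averaged 3.62 CPM in wild-type add-back, 17.2 in mutant add-back, 22.0 in ko and 6.12 in wild type (log2 1.83, adjusted p = 3.9e-08). Smug1, a DNA repair gene on the Hoxc side, was higher in ko by 0.62 (adjusted p = 7.3e-06).

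Hox proteins bind DNA with TALE homeodomain partners, of which 11 were tested, with 2 higher and 3 lower in ko than in wild type, at a median log2 change of -0.12. Pknox2 was lower in ko by a log2 change of -1.11 ± 0.18, at 3.48 CPM in ko and 7.46 CPM in wild type (adjusted p = 3.5e-05, edgeR), and Tgif2 by -0.40 ± 0.06, at 40.2 CPM in ko and 53.1 CPM in wild type (adjusted p = 7.9e-06). Meis1 was higher by 0.90 ± 0.18, at 4.65 CPM in ko and 2.52 CPM in wild type (adjusted p = 0.00031).

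Cdx factors act upstream of Hox genes, and of 4 tested ParaHox and Cdx genes 3 were higher and 0 lower in ko. Cdx2 averaged 0.238 CPM in wild-type add-back, 2.20 in mutant add-back, 1.14 in ko and 0.398 in wild type (log2 1.65 ± 0.46 in ko, adjusted p = 0.0056, edgeR), Cdx4 was higher by 1.67 and Cdx1 by 0.62. Within sets, 4 of 4 were higher in the middle and 1 of 4 in the low set. The sum over 6 such genes was 6.85 to 8.27 CPM in ko and 1.40 to 1.47 CPM in wild type in the middle set, and 5.93 to 6.61 CPM in ko and 5.15 to 6.01 CPM in wild type in the low set.

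Retinoic acid switches Hox genes on from the head end, and of 16 tested genes of its pathway 7 were higher and 4 lower in ko, at a median log2 change of 0.42 over all libraries, 0.55 in the middle and 0.00 in the low set. Crabp1, a retinoic acid binding protein gene, averaged 23.4 CPM in wild-type add-back, 56.4 in mutant add-back, 71.4 in ko and 23.3 in wild type (log2 1.61 ± 0.15 in ko, adjusted p = 8.6e-08, edgeR). Dhrs3 and the synthesis enzyme Aldh1a3 were higher by 1.56 and 2.15, and the receptor gene Rxrg was lower by -2.31.

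Of 29 Polycomb genes, which keep Hox clusters silent, 8 were higher and 4 lower in ko, at a median log2 change of 0.06, and the share higher was close to the 26.8% of all tested genes. Phc1 averaged 657 CPM in wild-type add-back, 367 in mutant add-back, 392 in ko and 725 in wild type (log2 -0.89 ± 0.10 in ko, adjusted p = 6.7e-07, edgeR). Of 14 Trithorax and related genes, which counter Polycomb, 7 were lower and 0 higher, where 28.2% of all tested genes were lower, with Kdm6a, which removes the Polycomb histone mark, at log2 -0.61. Of 8 genes for CTCF and its partners 5 were lower and 0 higher, with Ctcf at 214 CPM in wild-type add-back, 167 in mutant add-back, 171 in ko and 225 in wild type (log2 -0.40, adjusted p = 0.00063).

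Germ layer markers were examined because Hox genes are normally used in such cells. Of 8 tested neuroectoderm genes 6 were higher in ko and 0 lower, with the neural factor Sox1 at 2.35 CPM in wild-type add-back, 9.91 in mutant add-back, 11.3 in ko and 4.21 in wild type (log2 1.43 ± 0.15 in ko, adjusted p = 2.3e-07, edgeR). Of 9 primitive streak and mesoderm genes 3 were higher and 0 lower, at a median log2 change of -0.08. Of 9 endoderm genes 2 were higher and 0 lower over all libraries, but 9 were higher and 0 lower in the middle set, and 1 was higher and 8 lower in the low set. The part of such cells in the Hox differences was not tested.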

How the data were processed

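Polyadenylated RNA of 18 libraries was sequenced with a stranded kit, per the labels. The authors deposited whole-number counts per gene with an exonic width in bases. Reads were handled with bcl2fastq 2.17 and STAR on mm10 (GRCm38), per the submitters' processing notes. How reads were assigned to genes, and whether strand was used, is not given in the sources used here.

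From these counts, TMM-scaled CPM and tests were computed with edgeR 4.0.16 in R 4.3.3. The robust quasi-likelihood fit had 1 mean per group over all 18 libraries, a filter by group at a count minimum of 10 (14901 of 24116 genes) and Benjamini-Hochberg adjustment over all genes tested (common biological coefficient of variation 0.169). A further fit had a mean per group and depth set. DESeq2 1.42.0, other scalings and filters, depth sets alone, a replicate block and each library left out were the alternatives. The pipeline was tested on simulated data. The labels speak of biological replicates but not of separate cultures, so p-values measure the spread between these libraries, which may be technical. No 2 libraries agreed within sampling noise (lowest chi-square per gene 1.37, highest 55.37 within a group). The members and lists were chosen with earlier results of these data known. Genes were named by a rule: the Hox genes, with values in every library for those at 1 CPM or more, and from other lists up to 4 with the smallest adjusted p in ko against wild type. Hoxa11os, Col1a1, Pdgfrb and Dcn fall outside it and were chosen after their values were seen, as were Col3a1, Postn and Prrx1. Some items covered by that rule are not reported here and stay in the counts and sums.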

Additional observations from a re-analysis of the deposited data

Results flagged for a closer look

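In wild type, replicate 8 stood above the other 7 libraries for Hoxb7 at 0.405 CPM, with a gap to the next library of 0.66 of the whole range. It was the only such case in 30 groups examined, and chance gives about 1 in 20.

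The ko effect differed between the middle and low depth sets for 4 Hox genes by a test of the difference itself (edgeR, middle minus low set, log2). The difference was 2.43 ± 0.53 for Hoxa10 (adjusted p = 0.0016), 2.56 ± 0.59 for Hoxa11 (adjusted p = 0.0025), 2.04 ± 0.65 for Hoxb4 (adjusted p = 0.024) and 1.96 ± 0.63 for Hoxc10 (adjusted p = 0.034). The sets rest on library totals, and what else differs between them is not given in the sources used here. These p-values measure the spread between libraries within groups and sets. They do not show that the difference would recur in new sets.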

How the results depend on the processing

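Of 1066 values of called Hox results under other settings, 992 kept call and direction, 74 lost the call and 0 turned round. The Hox genes called in ko against wild type were 12, with 21 of 39 without a filter on low counts and 5 of 9 tested with depth set as a term. Without a filter, calls numbered 16 in wild-type add-back against ko, 14 in wild-type add-back against mutant add-back and 21 in mutant add-back against wild type. In the low set alone they were 2 in mutant add-back against ko and 2 in wild-type add-back against wild type. The replicate block gave 1 in wild-type add-back against wild type and 7 in mutant add-back against wild type, and no other count of calls moved by over 1.5 times under it. Same-numbered libraries did not deviate together (correlations 0.17, 0.14, 0.14, -0.25 and -0.24 in ko against wild type), so the numbers do not pair the samples. The cause of these changes was not tested, apart from the fewer or more genes tested. In the main fit 55.0% of all tested genes were called in ko against wild type and 45.0% in wild-type add-back against ko. The share was 37.0% in wild-type add-back against mutant add-back and 45.5% in mutant add-back against wild type. Shares of all genes called under the other settings are not given here, so the Hox counts under them are a description.

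With each library left out in turn, calls ran from 10 to 13 in ko against wild type, 6 to 12 in wild-type add-back against ko (6 without wild-type add-back replicate 1), 0 to 0 in mutant add-back against ko, 6 to 10 in wild-type add-back against mutant add-back, 0 to 1 in wild-type add-back against wild type and 8 to 12 in mutant add-back against wild type. Genes at 1 CPM or more ran from 2 to 3 in wild-type add-back, 7 to 8 in mutant add-back, 6 to 7 in ko and 3 to 4 in wild type, and wild type had 1 when every library had to reach it and 5 in its low set alone.

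Directions turned only for values not called over all libraries. In ko against wild type Hoxa10 was -0.78 in the low set and -0.01 without the high set, Hoxb4 was -0.43 in the low set, and Hoxb13 was 0.74 in the low set, 0.82 in the middle set, 0.79 with depth set as a term and 0.77 without the high set. Hoxc13 in mutant add-back against ko was 0.23 in the low set. With a mean per group and depth set, the low set also turned Hoxb4 (0.61), Hoxb7 (0.18), Hoxc10 (0.69) and Hoxd8 (0.16) in mutant add-back against ko, Hoxb4 (0.37) in wild-type add-back against ko, and Hoxa3 (-0.13) and Hoxb4 (-0.06) in wild-type add-back against wild type. In wild-type add-back against wild type Hoxa10 was 0.35 and Hoxc4 -0.18 with the block, Hoxc13 was 0.00 without a filter, 0.61 in the low set and 0.17 without the high set, and Hoxd13 was -0.39 in the low set and -0.18 without the high set. Leaving out single libraries gave -0.38 to 0.14 for Hoxb13 in ko against wild type, -0.09 to 0.81 for Hoxa11 in mutant add-back against ko, and, in wild-type add-back against wild type, -0.24 to 0.12 for Hoxc13, -0.10 to 0.16 for Hoxc4 and -0.01 to 0.28 for Hoxd13. Leaving out the high set was chosen after seeing the data. Most Hox genes had under 1 CPM, so counting error limits them.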
